A study of Mus musculus with 2 samples.

Results

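Lrg1 and 9 genes of the transforming growth factor beta (TGF beta) pathway were followed in RNA of whole mouse liver. They comprise the ligand Tgfb1, the receptors Tgfbr1, Tgfbr2 and Acvrl1, the co-receptor Eng, the inhibitory Smad genes Smad6 and Smad7, and the target genes Id1 and Id3. The 10 genes were taken by symbol from the 22609 gene symbols counted, and all 10 were found. There were 2 libraries, 1 wild type and 1 labelled Lrg1 knockout, the label for mice lacking the gene in the whole body. Both came from male C57BL/6 animals (the wild-type mice are given as C57BL/6J) that ate food with 45% of its calories as fat for 16 weeks, from the age of 8 weeks. Whether a library is 1 animal or a pool is not in the labels. Each difference below is between 2 libraries and not between genotypes, and has no test. The libraries held 23311906 (wild type) and 18738397 (labelled Lrg1 knockout) reads in genes. Levels are given in CPM, the read count relative to library size, with library sizes scaled by the trimmed mean of M-values (TMM). Ratios and log2 ratios are of the library labelled Lrg1 knockout over wild type unless another direction is named, and paired values give wild type first. Brackets hold 95% intervals, which cover counting error only.

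TGF beta and the related bone morphogenetic proteins (BMPs) bind pairs of type I and type II receptor kinases. In most cells TGFBR1 and TGFBR2 pass the signal to SMAD2 and SMAD3. Endothelial cells also carry ACVRL1, also called ALK1, a type I receptor that passes the signal to SMAD1 and SMAD5 and works with the co-receptor endoglin, the product of Eng. SMAD1 and SMAD5 switch on the Id genes, which encode inhibitors of basic helix-loop-helix factors, and SMAD6 and SMAD7 feed back to damp the receptors. LRG1 is a secreted leucine-rich glycoprotein that is known to bind endoglin and to favour the ALK1 branch in endothelium, and hepatocytes are a major source of it.

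Most of the 10 genes lay close to the same level in both libraries, and Id3 was the exception. All 10 had at least 50 reads summed over both libraries, the minimum for a measured gene, which 11411 genes met. Id3 was the only one at least 2-fold apart, 1 of 10 genes beside 4.20% of all measured genes (1.70% higher and 2.50% lower in the library labelled Lrg1 knockout). At 1.5-fold the count was again 1 of 10, beside 12.8% of measured genes (5.85% higher and 6.91% lower). In the library labelled Lrg1 knockout 5 of the 10 were higher, beside 48.3% of measured genes, and 5 lower, with a median log2 ratio of -0.02 beside -0.01 over all measured genes. Counting intervals excluded no difference for 5 of the 10, 3 higher (Eng, Smad7 and Id3) and 2 lower (Lrg1 and Id1), beside 48.6% of measured genes. A count of 1 in such a small group is not a result about the group, and the genes are described singly below.

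**Figure D1:**
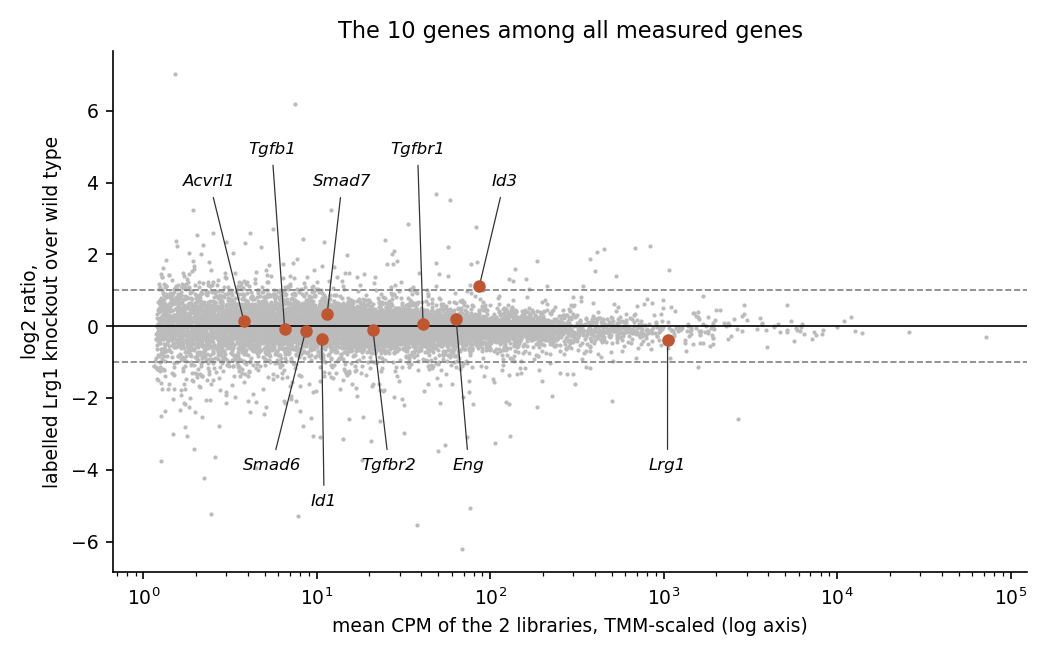
The horizontal axis is the mean level of a gene in the 2 libraries in CPM on a log axis, and the vertical axis the log2 ratio of the library labelled Lrg1 knockout to wild type. Each grey point is 1 of 11411 measured genes, orange points are the 10 genes, and dashed lines mark 2-fold; Id3 alone of the 10 lies beyond them.

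Lrg1 was by far the most abundant of the 10 genes in both libraries, the one labelled knockout included. It had 26958 wild-type reads and 17572 under the knockout label, or 0.116% and 0.0938% of all reads in genes. Per length of its merged exons this was 845 CPM per kb (835 to 855) against 647 (638 to 657). Among 11313 measured genes with a known length, Lrg1 ranked 52 in wild type and 67 under the knockout label. The level was 1.31-fold higher in wild type (1.28 to 1.33), a log2 ratio of -0.39. The intervals did not overlap. Lrg1 reads were thus abundant under a label that names loss of the gene, and each direction below is drawn from the library with that label. Whether the allele leaves a transcript, or labels or samples were mixed up, was not tested. An exchange of these 2 libraries with each other would turn every direction. As both hold abundant Lrg1 reads, either would carry them under the knockout label. With a sample from elsewhere under that label, the directions would not concern a knockout.

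The annotated Lrg1 gene has 1 transcript, which has 2 exons and 1408 bases, lies on chromosome 17, overlaps no exon of another gene, and shares 0% of its 1359 stretches of 50 bases, the read length, with transcripts of other genes. Counts per gene do not show where in Lrg1 the reads lie. Which part was deleted is not stated in the labels. Among 201 genes with a summed count between 0.5 and 2 times that of Lrg1, 28 had a lower ratio and 173 a higher one. Among the closest to Lrg1 in log2 ratio, a likeness that rests on 2 libraries, were Hdlbp, which encodes a lipoprotein-binding protein (-0.39), and Arg1, the arginase of the urea cycle (-0.38).

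The bases before the start of Lrg1 are shown because transcripts of the gene were present under both labels. The stretch runs 5′ to 3′ on the minus strand at chr17:56122002-56122196 of GRCm38.p6, from RefSeq, and ends at the GENCODE start of the transcript. The authors' counts rest on build mm9, so these coordinates do not apply to their alignments. Capitals mark its only match to CAGAC, the core of the box that SMAD3 and SMAD4 bind, searched on both strands:
Lrg1: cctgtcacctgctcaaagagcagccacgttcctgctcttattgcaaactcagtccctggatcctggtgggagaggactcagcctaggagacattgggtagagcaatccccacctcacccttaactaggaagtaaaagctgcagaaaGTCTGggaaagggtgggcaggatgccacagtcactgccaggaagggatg
These 195 bases have a GC content of 54.4%. Neither they nor the rest of the 250-base window before the RefSeq start hold TTCNNNGAA, the core of STAT sites (7.02% of 32851 windows do), or TATAAA (12.4%).

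Lrg1 in liver is an acute phase gene that answers to interleukin 6 and STAT3. The axis and its acute phase targets held 17 measured genes. Under the knockout label 4 stood higher, beside 48.3% of all measured genes, and 13 lower. By 2-fold 1 was lower, beside 2.50% of all measured genes. The median log2 ratio was -0.13, and 7 of 17 were higher under scaling by total count. Il6ra, the interleukin 6 receptor, had 1210 reads against 440 (-1.23), and the acute phase transcription factors Cebpb (-0.83) and Cebpd (-0.71) followed. Lifr was higher at 0.66, and Il6st (0.05) and Socs3 (-0.03) had intervals that included no difference. Hamp, which also answers to this axis, was higher at 1.81 but is counted with the SMAD1 and SMAD5 targets below. Of 13 measured hepatocyte markers 11 were lower, with a median of -0.08, though 6 were higher under scaling by total count. Their summed level was 123923 CPM against 108658 CPM, of which Alb alone made up 79170 and 64406 CPM. Cps1, of the urea cycle, was at -0.54, the transcription factor Hnf4a at -0.51 and the aminotransferase Tat at 0.66. Per 1000 reads of the summed hepatocyte markers Lrg1 had 9.60 reads (wild type) and 8.39 (labelled Lrg1 knockout). Since Alb is most of that sum, this comparison largely sets Lrg1 against Alb. In bulk tissue, fewer cells of a type and less RNA per cell cannot be told apart, and the part of these differences in that of Lrg1 was not tested.

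Neutrophils also carry LRG1 in their granules. The 12 granule and neutrophil genes summed to 8.48 CPM in wild type and 9.33 CPM in the library labelled knockout. Only 3 were measured, S100a8 (0.07), S100a9 (0.41) and the receptor Csf3r (0.16). Camp (3 and 0 reads) and Mpo (4 and 0 reads) were at 0 in the library labelled knockout, where the floor of 3 counts is 0.156 CPM. The part of neutrophils in the Lrg1 reads was not tested.

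Tgfb1, the ligand, was low in both libraries, with no difference beyond counting error. Its 152 wild-type reads and 122 reads under the knockout label gave 6.71 CPM (5.69 to 7.87) and 6.33 CPM (5.25 to 7.55). The intervals overlapped, and the ratio was 0.943 (0.737 to 1.20). A difference inside those bounds was not detectable at this depth. Of the 12 other measured genes for TGF beta ligands and for keeping TGF beta latent, 6 were higher and 6 lower, with a median log2 ratio of -0.0016. Thbs1, which encodes the latent TGF beta activator thrombospondin-1, was the only one past 2-fold, with 76 reads against 27 (-1.25). The latent TGF beta binding proteins Ltbp1 (0.42) and Ltbp3 (-0.36) had intervals that included no difference, and Tgfb2 had only 8 and 5 reads.

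The receptor genes Tgfbr1 and Tgfbr2 showed no difference beyond counting error. Tgfbr1, the type I receptor of the SMAD2 and SMAD3 branch, had 910 wild-type reads against 803, a ratio of 1.04 (0.942 to 1.14). Tgfbr2, its type II partner, had 492 and 392 reads, a ratio of 0.936 (0.818 to 1.07). Both intervals included no difference. Within each library there were 1.85 and 2.05 Tgfbr1 reads per Tgfbr2 read, a comparison that needs no scaling, and the change in that ratio (1.11, 0.938 to 1.31) also included no difference.

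Acvrl1, which encodes the endothelial receptor ALK1, had the fewest reads of the 10 genes, 81 wild-type reads against 77. Its ratio of 1.12 has a wide interval (0.807 to 1.54). Eng, its co-receptor, had 1341 and 1306 reads, or 59.2 CPM (56.1 to 62.5) and 67.7 CPM (64.1 to 71.5). The Eng intervals did not overlap, and the ratio was 1.14 (1.06 to 1.24), a log2 ratio of 0.19. The 24 markers listed for sinusoidal endothelium summed to 505 and 723 CPM in the same libraries. Within the libraries there were 0.0604 and 0.0590 Acvrl1 reads per Eng read, and the change of 0.976 (0.698 to 1.36) included no difference. Eng overlaps an exon of Fpgs on the opposite strand by 61 bases, and Acvrl1 an antisense transcript by 127 bases. Fpgs was level, at 231 and 229 CPM. The kit keeps strand, but the labels do not state whether counting used it.

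Of 10 other measured receptors of the family, 8 stood above wild type under the knockout label and 0 were past 2-fold, with a median log2 ratio of 0.07. The co-receptor Tgfbr3, betaglycan, was at 0.62. The interval of the pseudoreceptor Bambi (0.30) spanned no difference. Rgmb, a BMP co-receptor, was the lowest at -0.76. The BMP receptors Bmpr2 (-0.06), Bmpr1a (0.07) and Acvr1 (0.01) had intervals that included no difference.

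Of the inhibitory Smads, Smad7 was higher under the knockout label, and Smad6 showed no difference beyond counting error. Smad6, which mainly restrains BMP receptors, had 204 wild-type reads against 158, a ratio of 0.910 (0.734 to 1.13) that included no difference. Smad7, which restrains both TGF beta and BMP receptors, had 228 and 248 reads, 10.1 CPM (8.80 to 11.5) and 12.9 CPM (11.3 to 14.6). Its ratio was 1.28 (1.06 to 1.54), although the CPM intervals of the 2 libraries overlapped slightly. Smad6 reads per Smad7 read were 0.895 (wild type) and 0.637 (labelled Lrg1 knockout), a change of 0.712 (0.536 to 0.946).

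Id3 and Id1, which usually answer to the same SMAD1 and SMAD5 signal, went in opposite directions. Id3 had 1232 wild-type reads against 2283 under the knockout label, or 54.4 CPM (51.4 to 57.5) and 118 CPM (114 to 123). It was 2.18-fold higher there (2.03 to 2.33), at percentile 98.7 of the ratios of all measured genes. Id1 had 270 and 181 reads, or 11.9 CPM (10.5 to 13.4) and 9.39 CPM (8.07 to 10.9), and was 1.27-fold higher in wild type (1.05 to 1.54). The intervals of Id3 lay far apart and those of Id1 overlapped slightly. Id1 reads per Id3 read were 0.219 (wild type) and 0.0793 (labelled Lrg1 knockout), a change of 0.362 (0.294 to 0.444). Of 45 pairs of the 10 genes, 6 had a within-library read ratio that differed at least 2-fold between libraries, and all 6 involved Id3. The 36 pairs without Id3 ranged from 0.599 to 1.62.

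**Figure D2:**
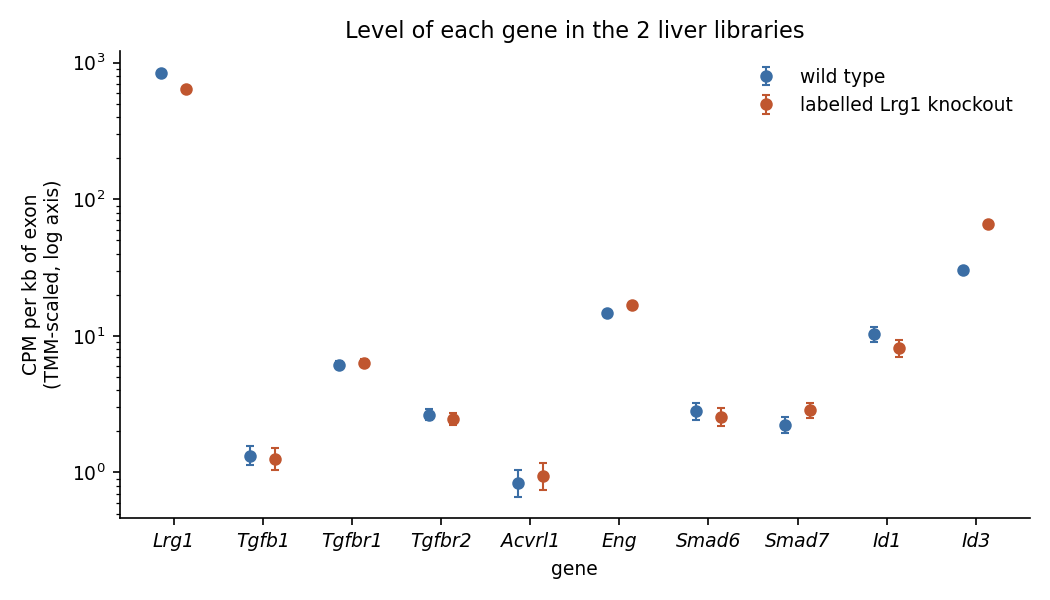
The horizontal axis lists the 10 genes and the vertical axis gives CPM per kb of merged exon on a log axis. Points are the 2 libraries, wild type and labelled Lrg1 knockout, and bars are 95% Poisson intervals; Lrg1 stands at 845 and 647, and Id3 is the gene whose 2 points lie farthest apart.

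Per length the order of the genes was almost the same in both libraries. Wild type ran from Lrg1 (845 CPM per kb) through Id3 (30.4), Eng (14.6), Id1 (10.3), Tgfbr1 (6.15), Smad6 (2.81), Tgfbr2 (2.65), Smad7 (2.23) and Tgfb1 (1.33) to Acvrl1 (0.838). The intervals of Smad6 and Tgfbr2 overlapped, as did those of Tgfbr2 and Smad7, and the other neighbours were apart. In the library labelled Lrg1 knockout Id3 stood at 66.1, Eng at 16.7 and Id1 at 8.09. There Smad7 (2.84) came before Smad6 (2.56) and Tgfbr2 (2.48), and the intervals of these neighbours overlapped, as did those of Tgfb1 (1.25) and Acvrl1 (0.936). These levels rest on GENCODE exon lengths: with the longest transcript in place of merged exons the wild-type level of Tgfb1 was 2.61 and that of Id3 42.6.

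Windows of 250 bases before the start were found in RefSeq for 7 of the 10 genes, and Acvrl1, Smad7 and Id1 had none. CAGAC occurred on either strand in 4 of the 7 windows (first start of each gene) and in 42.2% of all windows. Id3 and Eng had 2 matches each, and 11.7% of all windows had 2 or more. The matched stretches are shown for these genes because Id3 was the gene farthest from parity and Eng is the endothelial co-receptor. Capitals mark CAGAC or its reverse complement, and coordinates are GRCm38.p6 with the gene's strand:
Id3, chr4:136143643-136143671, plus strand: tgtcctcggcgtCAGACcagcctaaggaa
Id3, chr4:136143742-136143770, plus strand: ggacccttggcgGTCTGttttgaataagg
Eng, chr2:32646369-32646397, plus strand: agggacttcaacCAGACcttgtcccctat
Eng, chr2:32646456-32646484, plus strand: tgcatgggggagGTCTGttgcctgggccc
In Id3 the matches lie 167 and 68 bases before the RefSeq start, and GENCODE, whose Id3 start lies further upstream, places them in the first exon. GGCGCC, an element of BMP-responsive Id promoters, was found in the first window of Tgfbr1 and in no window of the other 6 genes, against 9.59% of all windows. A match is a description of the letters and not of binding.

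Beyond the 10 genes, 6 lists of the TGF beta and BMP pathway held 75 measured genes. In the library labelled Lrg1 knockout 44 were higher (58.7%, beside 48.3% of all measured genes) and 31 lower. The same 48.3% stands beside each list count of higher genes. The median log2 ratio was 0.05, beside -0.01 over all measured genes. Past 2-fold stood 6 genes above and 7 below wild type, together 17.3% beside 4.20% of all measured genes. The lists were chosen with earlier results of these data known, so this share is a description.

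Among ligands and antagonists of the BMP and activin branches 9 of 16 measured genes were higher. Fst, which encodes the activin trap follistatin, had 33 wild-type reads against 188 (log2 ratio 2.72). The BMP ligands Bmp4 (37 and 71 reads, 1.16) and Bmp6 (30 and 55 reads, 1.09) were past 2-fold, and Bmp2 stood at 0.74. Gdf15, a stress-induced member of the family, was lower at -2.21, with 1189 and 219 reads. Gdf2, which encodes BMP9, the ligand of ALK1 made in liver, was lower at -0.26. The second ALK1 ligand, Bmp10, had only 13 and 14 reads.

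Most Smads and their regulators were near parity, with 15 of 20 measured genes higher and a median log2 ratio of 0.07. Smad1 (0.01), Smad5 (0.04), Smad2 (-0.14), Smad3 (0.10) and Smad4 (0.03) had intervals that included no difference. Smad9, the third Smad of the BMP branch, was past 2-fold, with 110 wild-type reads against 277 (1.56). The feedback genes Pmepa1 (0.84) and Skil (0.60), both known targets of SMAD3, were higher.

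Of 5 other SMAD1 and SMAD5 targets that were measured 4 were higher, with a median log2 ratio of 0.41. With a minimum of 10 reads 5 of 8 were higher, and among those added Tmem100, named after its values were seen, had 22 and 8 reads (-1.18). Hamp, the iron hormone hepcidin and a BMP target of hepatocytes, had 1860 and 5539 reads (1.81). Id4 had 23 and 41 reads (1.05), Id2 was at 0.33 and Atoh8 at 0.41. Hes1, also a target of Notch, was lower at -1.75, with 475 and 120 reads.

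Targets of SMAD2 and SMAD3 were mostly lower. The list had 12 measured genes, 2 above wild type, beside 48.3% of all measured genes, and 10 below. By 2-fold or more 4 were lower, beside 2.50% of all measured genes. Their median log2 ratio was -0.60. The transcription factor Snai2 had 132 wild-type reads against 43 (-1.38). The transcription factor Junb (-1.32) and the collagen Col1a1 (-1.07) were also past 2-fold. These genes also answer to other signals, and Skil and Pmepa1 above went the other way, as did Smad7. Stellate cells, which make much of the collagen, had markers that were higher in 12 of 12 cases (median 0.26, summed level 361 and 424 CPM). Tcf21, a transcription factor, had 92 and 157 reads, the nerve growth factor receptor Ngfr stood at 0.78 and the collectin Colec11 at 0.43. The part of cell makeup in these differences was not tested.

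**Figure D3:**
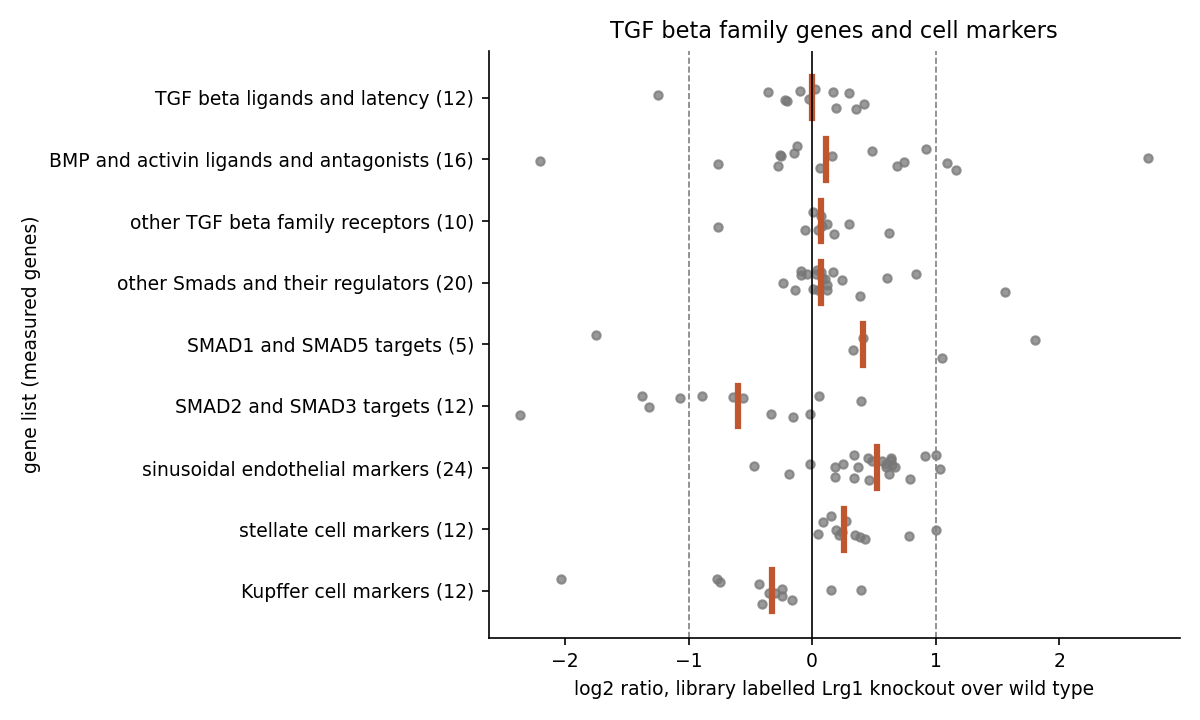
The horizontal axis is the log2 ratio of the library labelled Lrg1 knockout to wild type, and each row is a gene list with its number of measured genes. Grey points are genes, orange bars medians and dashed lines 2-fold; the median of SMAD2 and SMAD3 targets lies at -0.60 and that of sinusoidal endothelial markers at 0.52.

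Markers listed for sinusoidal endothelium mostly stood above wild type under the knockout label. Eng and Acvrl1 are best known in endothelium. The list also holds genes shared with other endothelium, so its sum is not of sinusoidal cells alone. All 24 had reads in both libraries and all were measured, with 21 higher and 3 lower and a median log2 ratio of 0.52. Their summed level was 505 CPM (wild type) and 723 CPM (labelled Lrg1 knockout), a ratio of 1.43 (1.40 to 1.47). Dnase1l3, a secreted nuclease (1.04), the VEGF receptor Kdr (517 and 882 reads) and the sialomucin Emcn (0.92) stood highest. The 3 lower markers were Lyve1 (392 and 240 reads, -0.47), Nos3 (-0.19) and Gpr182 (-0.02). Of these only the interval of Lyve1 excluded no difference. Eng (0.19) was below 19 of the 24 markers, and Acvrl1 (0.16) below 21.

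Set against the summed endothelial markers, 8 of the 9 pathway genes stood lower under the knockout label, as did 92.6% of all measured genes. The count is near that share and is not a result about these genes, since the sum that divides every gene was itself higher. Eng reads per 1000 marker reads were 117 (wild type) and 93.6 (labelled Lrg1 knockout), a ratio of 0.799 (0.737 to 0.867). On this scale the ratio of Id1 was 0.550 (0.452 to 0.668) and that of Tgfbr2 0.654 (0.570 to 0.750). Acvrl1 (0.780, 0.563 to 1.08) and Smad7 (0.893, 0.741 to 1.08) had intervals that included no difference. Of the 9 only Id3 was higher on this scale too, at 108 and 164 reads per 1000 marker reads (1.52, 1.41 to 1.64). Most of these genes are used by several cell types, so the ratio sets 2 sums side by side and is no level per endothelial cell. The part of the endothelial markers in the differences of the 9 genes was not tested.

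Kupffer cell markers, for the resident macrophages that also make TGF beta, mostly went the other way. Of 12 measured genes 10 were lower, with a median log2 ratio of -0.33 and a summed level of 812 and 729 CPM. The scavenger receptor Marco was at -2.04, Timd4 at -0.77 and Adgre1, listed under its older symbol Emr1, at -0.74. The 2 higher markers were Clec4f (2472 and 2335 reads, 0.15) and Slc40a1 (0.40), both with intervals that excluded no difference. Tgfb1 stood at 8.26 (wild type) and 8.68 (labelled Lrg1 knockout) reads per 1000 Kupffer marker reads.

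**Figure D4:**
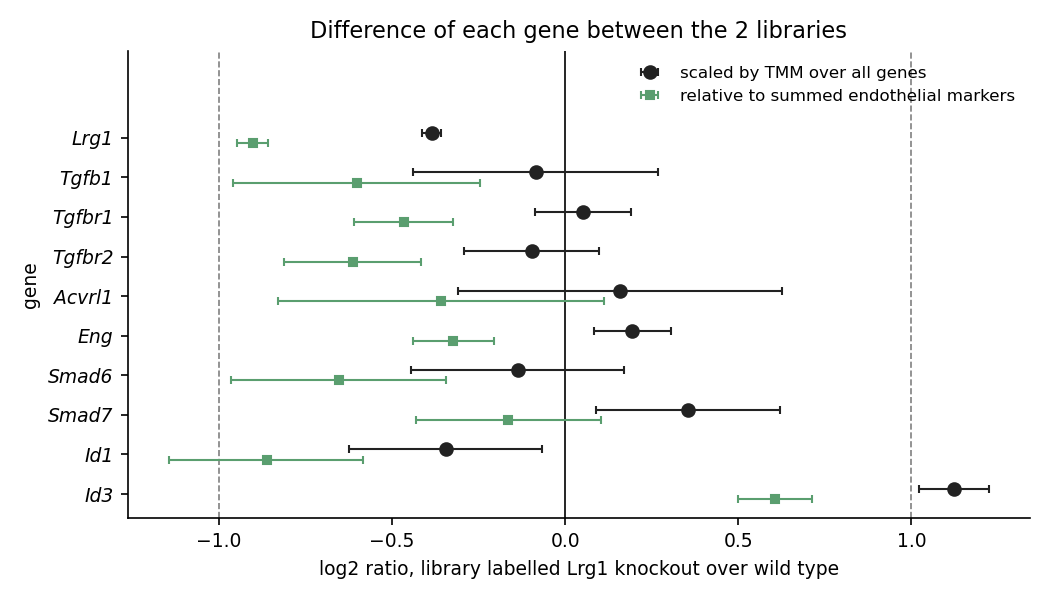
The vertical axis lists the 10 genes and the horizontal axis gives the log2 ratio of the library labelled Lrg1 knockout to wild type with 95% intervals for counting error; dashed lines mark 2-fold. Black points are scaled over all genes and green squares are relative to the summed sinusoidal endothelial markers, and Id3 is the only gene to the right of 0 on both scales.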

How the data were processed

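For each of 2 liver libraries the deposited files give raw counts of reads by gene symbol, not normalized. Per the labels' protocols, about 500 ng of total RNA per library went through poly(A) selection and a stranded kit, with single-end reads of 50 bases. Per the submitters' processing notes, bcl2fastq, TopHat2, HTSeq and build mm9 were used. Versions, annotation and the strand setting are not given in sources used here. Lines naming no gene were left out. Of unique alignments 14.0% (wild type) and 14.4% (labelled Lrg1 knockout) were assigned to no counted feature. A further 0.231% and 0.234% were ambiguous between genes, and non-unique alignments were not counted to genes.

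Counts were scaled by TMM (edgeR 4.0.16, R 4.3.3), where 1 read is worth 0.0441 and 0.0519 CPM. Log2 ratios carry a prior count of 0.5. Ratios have exact Clopper-Pearson intervals given the sum of both counts, levels exact Poisson intervals, and ratios of ratios exact conditional intervals (scipy 1.17.1). Without molecular identifiers, reads are not independent molecules. Lengths and overlaps come from GENCODE M21 (22209 of 22609 symbols matched). The 2-fold call and the ratio intervals were tested on simulated libraries with counting error only and known library sizes. The scaling and the other steps were not tested in that way. With 1 library per group no p-value is given.

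Members and lists were chosen with earlier results of these data known. Named are the 10 genes, the 3 measured genes of each of 12 lists farthest from 0, every list gene past 2-fold, and the 3 genes most like Lrg1. Some items that this rule takes are not reported here. Tgfb2, Bmpr2, Bmpr1a, Acvr1, Smad1 to Smad5, Bmp2, Gdf2, Bmp10, Id2, Atoh8, Camp, Mpo, Tmem100 and Fpgs, and the sequence motifs, were chosen after values were seen. So were Alb, Lifr, Il6st, Socs3, Clec4f, Slc40a1, Lyve1, Nos3 and Gpr182. Alternatives were other scalings (among them DESeq2 1.42.0 size factors), thinning, prior counts, filters, thresholds, lengths and list means.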

Additional observations from a re-analysis of the deposited data

Results flagged for a closer look

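Lines for alignments to more than 1 place are a large signal outside the counts per gene. Among all counted lines their share was 50.3% (wild type) and 58.0% (labelled Lrg1 knockout). For the 10 genes, 0% to 0.951% of the 50-base stretches of the longest transcript also occur in transcripts of other genes, with Tgfb1 the highest.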

How the results depend on the processing

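Settings changed the size but not the direction of the 10 log2 ratios over 5 alternatives. The log2 ratio of Lrg1, -0.39, was -0.30 under scaling by total count and -0.33 when the 20 most abundant genes were left out of that total. That of Id3 ranged from 1.12 to 1.20. The number of the 10 genes past 2-fold was 0 at a threshold of 3-fold, and 1 under the other alternatives. The median of the ligand and latency list, -0.0016, turned to 0.081 under total count, 0.00083 under DESeq2 size factors, 0.058 without the 20 most abundant genes and 0.016 after thinning of the wild-type library. The median of the BMP and activin list turned to -0.029 with a minimum of 200 reads. The cause was not tested. Of SMAD2 and SMAD3 targets, 4 of 17 were higher with a minimum of 1 or 10 reads and 1 of 10 with 200, where fewer genes enter. Of SMAD1 and SMAD5 targets, 6 of 10 were higher with a minimum of 1 read, 5 of 8 with 10 and 3 of 4 with 200. Of 116 alternative list medians, 107 kept their sign and stayed inside the counting interval of their middle genes, 4 left it and 5 changed sign. Relative to endothelial markers, where 92.6% of all measured genes were lower, the count of 8 of 9 was also 8 without the 3 most abundant markers and after thinning, both added after the data were seen. Acvrl1, Tgfb1 and Smad6 have too few reads to show differences inside their intervals. No paired analysis was possible because each group holds 1 library.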
